A study of Mus musculus with 3 samples.

Results

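The matrix metalloproteinases (MMPs), the ADAM and ADAMTS metalloproteinases and the tissue inhibitors of metalloproteinases (TIMPs) were read on 3 arrays of mouse blastocysts. A gene was taken as a member when a probe of the array carried its RefSeq transcript and its symbol began with Mmp, Adam or Adamts and a number, or was Timp1, Timp2, Timp3 or Timp4. This gave 80 genes, with 23 MMPs, 34 ADAMs, 19 ADAMTS genes and 4 TIMPs, of 23458 named genes on the array. They had 129 of the 33759 named probes. Of the 80 members, 42 had 1 probe, 27 had 2 and 11 had 3.

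MMPs are zinc enzymes that are secreted or held at the cell surface and cut collagens, laminins and other proteins of the extracellular matrix. ADAMs are membrane proteins that shed the outer part of growth factors, receptors and adhesion molecules, and many members of the family are restricted to testis and act in sperm. ADAMTS enzymes are secreted and process procollagens, proteoglycans and other matrix proteins, and TIMPs block the active site of the enzymes. In the implanting embryo, matrix proteases and their inhibitors act where the trophoblast enters the uterine wall.

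Each array held RNA of 1 pool of 30 expanded blastocysts, with 1 array per condition. All embryos came from ICR mice, were collected, per the labels, as zygotes after superovulation and mating, and were grown in KSOM medium for 96 h. The mothers of the young group were 3 to 6 weeks old, and those of the aging and the suppressed aging group were 43 to 53 weeks old. Only the medium of the suppressed aging group held a neutralizing antibody to CXCL5, at 10 μg/ml, and a selective antagonist of CXCR2, at 10 nM, which were given together, so that the effects of these agents cannot be told apart. CXCL5 is a chemokine and CXCR2 is its receptor. The design asks how blastocysts of older females differ from those of young females, and how blockade of this signal changes them.

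With 1 array per condition there was no replicate, so the values below have no error between embryos, no test between conditions was made, and a difference between arrays is a difference between 3 pools. The level of a probe is the log2 of its intensity minus the 75th percentile of its array, so a level of 0 is that percentile and a difference of 1 is 2-fold. Fewer cells that use a gene and less RNA of it per cell cannot be told apart in a pool. A gene was called above background on an array when the scanner software found at least 1 of its probes well above background. The lowest level of such a probe was -4.20, -4.32 and -3.93 on the young, aging and suppressed aging arrays, so the array of suppressed aging blastocysts was the least able to show a dim gene. The difference of a probe that passed this call on 1 of the 2 arrays in a comparison, but not on the other, is given as a bound. Levels of different probes are not set against each other, because probes differ in how well they bind. All 6 markers of the trophectoderm (such as Cdx2 and Krt8) and all 7 of the inner cell mass lineages (such as Nanog and Pou5f1) were above background on the 3 arrays. Of 9 markers of cumulus and granulosa cells, 3 were (Amh, Foxl2 and Cyp19a1), whereas Has2, Ptx3, Tnfaip6, Fshr, Lhcgr and Cyp11a1 were not on any array. The leukocyte marker Ptprc was below background on all 3 arrays, Hba-a1 of red blood cells was above it on all 3 and Hbb-b1 only on the aging array. The summed log2 level of these 3 blood genes was -0.31, 0.74 and -1.05 on the young, aging and suppressed aging arrays, and that of the 9 cumulus and granulosa genes was 8.66, 8.55 and 8.78. The latter sum comes almost wholly from Foxl2, which was at 8.66, 8.54 and 8.77 by the 1 probe read, so it does not show the level of the other cumulus and granulosa genes. These sums are set side by side only between arrays. Their part in the results below was not tested.

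The stretch of DNA before the start of 6 members is shown first, because members with and without signal differed in its CpG sites, as named genes at large did. The sequences are the 250 bases before the annotated start in RefSeq (GRCm38.p6), written 5′ to 3′ on the strand of the gene, and each CG (a CpG site, where DNA methylation is set, and which reads the same on both strands) is in capitals. Adam10, Mmp24 and Timp3 were above background on all 3 arrays. Mmp3 and Adam34 were below it on all 3. Mmp12 is shown as an exception, above background on all 3 arrays with few CpG sites.
Adam10, chr9:70678732-70678981, plus strand: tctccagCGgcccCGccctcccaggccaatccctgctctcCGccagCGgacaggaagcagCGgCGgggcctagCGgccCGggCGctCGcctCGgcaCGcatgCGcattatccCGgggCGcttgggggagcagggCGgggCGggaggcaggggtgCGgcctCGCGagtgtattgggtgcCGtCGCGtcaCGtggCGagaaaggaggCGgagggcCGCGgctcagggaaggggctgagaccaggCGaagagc
Mmp24, chr2:155775092-155775341, plus strand: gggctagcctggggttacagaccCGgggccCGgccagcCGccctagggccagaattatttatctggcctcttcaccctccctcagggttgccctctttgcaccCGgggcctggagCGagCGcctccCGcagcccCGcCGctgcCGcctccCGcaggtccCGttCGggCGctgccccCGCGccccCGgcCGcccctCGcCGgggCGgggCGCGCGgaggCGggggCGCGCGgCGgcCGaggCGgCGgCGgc
Timp3, chr10:86300162-86300411, plus strand: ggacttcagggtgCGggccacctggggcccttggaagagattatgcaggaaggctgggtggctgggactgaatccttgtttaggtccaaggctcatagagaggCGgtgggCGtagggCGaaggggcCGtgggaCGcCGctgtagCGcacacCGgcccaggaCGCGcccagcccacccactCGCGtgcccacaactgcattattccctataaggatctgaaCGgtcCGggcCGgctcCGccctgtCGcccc
Mmp3, chr9:7445572-7445821, plus strand: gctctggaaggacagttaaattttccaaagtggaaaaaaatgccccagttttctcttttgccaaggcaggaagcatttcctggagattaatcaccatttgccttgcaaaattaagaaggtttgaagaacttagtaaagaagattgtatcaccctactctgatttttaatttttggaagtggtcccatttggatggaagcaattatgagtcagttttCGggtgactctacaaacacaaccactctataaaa
Adam34, chr8:43665561-43665810, minus strand: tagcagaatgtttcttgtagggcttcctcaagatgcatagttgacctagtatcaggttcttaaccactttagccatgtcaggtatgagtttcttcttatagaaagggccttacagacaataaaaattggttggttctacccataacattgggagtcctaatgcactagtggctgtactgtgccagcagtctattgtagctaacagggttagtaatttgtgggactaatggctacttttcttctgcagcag
Mmp12, chr9:7347124-7347373, plus strand: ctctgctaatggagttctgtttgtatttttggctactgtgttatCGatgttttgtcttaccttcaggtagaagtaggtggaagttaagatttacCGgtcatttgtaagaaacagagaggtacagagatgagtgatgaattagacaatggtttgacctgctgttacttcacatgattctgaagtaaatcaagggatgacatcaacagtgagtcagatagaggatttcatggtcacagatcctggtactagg
The stretches of Adam10, Mmp24 and Timp3 hold 29, 33 and 18 CpG sites. That of Mmp3 holds 1, that of Adam34 none and that of Mmp12 holds 2.

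Fewer of the members than of all named genes were above background. On the young array 37 of the 80 members were (46.2%), beside 65.1 percent of all 23458 named genes. The aging array had 33 members (41.2%) beside 65.5 percent, and the suppressed aging array had 35 members (43.8%) beside 63.8 percent. There were 25 members above background on all 3 arrays, 9 on 2 arrays, 12 on 1 array and 34 on no array. Of all named genes, 59.2% were above background on the 3 arrays and 29.2% on none.

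The families differed in this count. All 4 TIMPs had signal, 3 of them on all 3 arrays. Of the 23 MMPs, 10, 7 and 9 were above background on the young, aging and suppressed aging arrays, 6 of them on all 3, and 11 were below background throughout. The 34 ADAMs gave 16, 13 and 14 genes, with 11 on all 3 arrays and 16 on none. The 19 ADAMTS genes gave 7, 10 and 8, with 5 on all 3 arrays and 7 on none. The ADAMs were grouped by where they are known to be used. Of 9 ADAMs known as proteases of many tissues, 7 were above background on all 3 arrays, and of 22 ADAMs known from testis and epididymis, 2 were on all 3 arrays and 14 on none. These groups of ADAMs were drawn after the values were known.

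**Figure D1:**
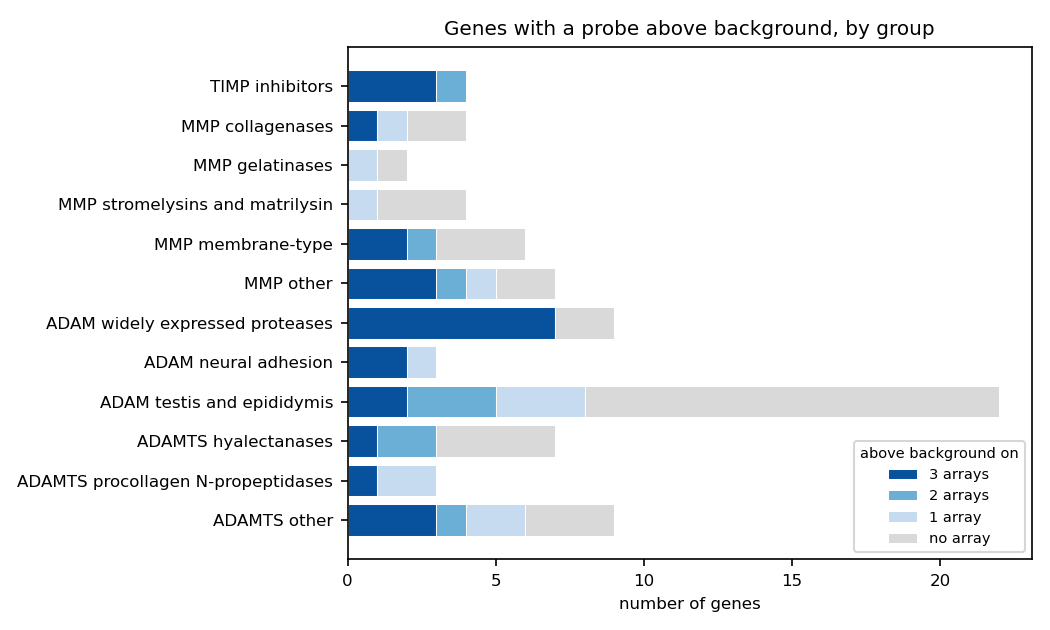
Number of genes of each group (bar length, x axis) with a probe above background on 3, 2, 1 or none of the arrays (shades), for the 12 groups of members (y axis). The 7 dark genes of the widely expressed ADAMs stand beside 14 grey genes of the 22 testis and epididymis ADAMs, and the 4 TIMP inhibitors have no grey part.

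Of the 21 members above background on only 1 or 2 arrays, 4 had signal only on the young array (Adam2, Adam30, Mmp1b and Mmp9), 3 only on the aging array (Adamts13, Adamts17 and Mmp11) and 5 only on the suppressed aging array (Adam5, Adam22, Adamts2, Adamts3 and Mmp23). The 4 members seen on the young and suppressed aging arrays but not on the aging array were Adam18, Mmp15, Mmp21 and Timp2. The 4 seen on both arrays without suppression but not on the suppressed aging array were Adam1b, Adam21, Adamts8 and Adamts9, and Adamts10 was the 1 member seen on both aging arrays but not on the young array. Their levels ran from -4.09 to -1.79 on the arrays where they had signal. With the less strict flag of the scanner software, by which a probe only has to be positive and significant, 56, 59 and 58 members had signal on the young, aging and suppressed aging arrays (70.0%, 73.8% and 72.5%), beside 81.5%, 80.3% and 79.2% of all named genes.

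Read by its probe of highest mean level, no member could be shown to be more than 5-fold apart (2.32 in log2), the threshold used here, between any pair of conditions. The bounds given below leave a larger difference possible, as for Adam2 in aging against young blastocysts (-2.31 or lower). Between aging and young blastocysts 41 members could be compared, of which 29 were measured on both arrays and 12 gave a bound. Their log2 differences ran from -2.31 or lower to at least 1.52, with a median of -0.18 beside 0.03 over all named genes compared. Over the 29 members measured on both arrays alone the median was 0.0088. Of 16164 named genes compared, 1.31 percent were more than 5-fold higher and 1.28 percent more than 5-fold lower in aging blastocysts. At 2-fold, 3 members were higher and 9 lower, beside 9.86 percent and 9.19 percent of all named genes.

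Between suppressed aging and aging blastocysts 42 members were compared, 26 of them measured on both arrays, and the differences ran from -1.26 or lower to at least 2.03 with a median of 0.07 beside -0.0034 over all named genes. The background was 1.35 percent more than 5-fold higher and 0.939 percent more than 5-fold lower. At 2-fold, 7 members were higher and 3 lower, beside 8.77 percent and 8.5 percent. Between suppressed aging and young blastocysts 41 members were compared, 29 of them measured on both arrays, and the differences ran from -2.15 or lower to at least 2.16 with a median of -0.07 beside 0.03. Here 1.38 percent of all named genes were more than 5-fold higher and 1.05 percent lower. At 2-fold, 7 members were higher and 5 lower, beside 8.67 percent and 7.64 percent. These comparisons share arrays, so a value on the aging array enters the first 2 with opposite sign.

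**Figure D2:**
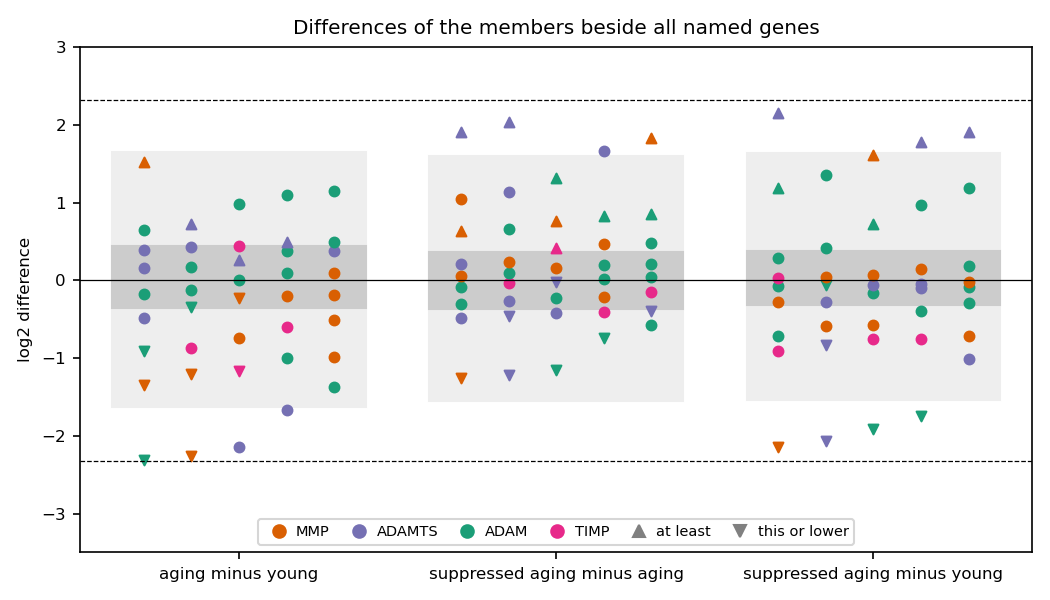
Log2 difference (y axis) of each member in the 3 comparisons (x axis), coloured by family, with circles for genes measured on both arrays and triangles for bounds. The dark and light grey boxes hold the middle 50% and 95% of all named genes measured on both arrays, the dashed lines mark 5-fold, and all circles and all bounds lie between the dashed lines, although a gene with a bound may lie farther out.

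All 4 TIMPs had signal on the young and suppressed aging arrays, and all but Timp2 on the aging array. Timp1, an inhibitor of most MMPs, was at a level of 0.74 in young, 1.19 in aging and 0.77 in suppressed aging blastocysts. It was highest on the aging array, 0.44 above young, and the suppressed aging array lay 0.03 from young. Timp4 was at -0.55, -1.42 and -1.45, so that both aging arrays lay below the young array, with differences of -0.87 and -0.90. Timp2, which also takes part in activating pro-MMP2 at the cell surface, was at -3.16 in young blastocysts, below background in aging blastocysts and at -3.91 in suppressed aging blastocysts, just above the limit there. Its difference between aging and young blastocysts was -1.16 or lower.

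Timp3, which is bound to the matrix and also blocks ADAM10, ADAM17 and several ADAMTS enzymes, had 2 probes above background on all 3 arrays that did not give the same direction. The probe of higher level was at 1.54, 0.94 and 0.79 on the young, aging and suppressed aging arrays, and the other was at -1.78, -0.74 and -0.94. Aging minus young was -0.60 by the first and 1.04 by the second. No direction can be given for Timp3 between young and aging blastocysts from these probes. After suppression both probes were a little lower than in aging blastocysts, with differences of -0.15 and -0.21.

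Of the MMPs that could be compared, most were lower in aging than in young blastocysts, and most were higher after suppression than in aging blastocysts. Of 11 MMPs compared between aging and young blastocysts, 9 were lower and 2 higher, and the median was -0.51 beside 0.03 for all named genes, of which 7770 of 16164 were lower. Of 10 compared between suppressed aging and aging blastocysts, 8 were higher and 2 lower, and the median was 0.35, where 7890 of 15875 named genes were higher. The sizes of these medians were smaller over MMPs measured on both arrays (-0.35 and 0.20) and under another background correction, normexp (-0.24 and 0.19). Against young blastocysts, 4 of 10 were higher and 6 lower after suppression, and the median was -0.15. Both counts rest on the same aging array. Of the values, 5 of 11 between aging and young blastocysts and 4 of 10 between suppressed aging and aging blastocysts are bounds of dim genes. The direction of a bound is set by the array on which the gene passed the call. Over MMPs measured on both arrays, 5 of 6 were lower in the first comparison and 5 of 6 were higher in the second. The study names MMP1, MMP8, MMP9, MMP10 and MMP15 as lower in CXCL5-treated and in aging embryos, from this same series. The lower direction in aging blastocysts is thus not independent evidence. None of the 3 arrays held CXCL5-treated embryos. Mmp1a and Mmp10 were below background on all 3 arrays, and Mmp1b and Mmp9 had signal only on the young array. At 2-fold, 1 of the 11 MMPs was higher and 3 were lower in aging than in young blastocysts, beside the 9.86 percent and 9.19 percent of all named genes. Some markers of the inner cell mass lineages also differed between these arrays. Sox2, Gata6 and Pdgfra were higher in aging than in young blastocysts (1.37, 0.99 and 1.28) and lower after suppression than in aging blastocysts (-0.26, -0.77 and -0.71), whereas Sox17 went the other way (-1.53 and 0.89). Nanog, Pou5f1 and Gata4 differed less between aging and young blastocysts (0.26, 0.34 and -0.04). Over all 7 inner cell mass markers the medians of these 2 comparisons were 0.34 and -0.11. For the 6 trophectoderm markers they were -0.18 and 0.18, the same directions as the medians of the MMPs. The part of these marker differences in the values of the MMPs was not tested.

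Among the membrane-type MMPs, which act at the cell surface, 2 of 6 were above background on all 3 arrays. Mmp17, anchored to the membrane by a lipid (glycosylphosphatidylinositol), was at 1.46 in young, 0.48 in aging and 1.52 in suppressed aging blastocysts. The aging array was the low one, with a difference of -0.98 from young and a level 1.04 higher after suppression, and the suppressed aging array lay 0.06 from young. Its other probe was dim, at -3.71 on the young array, below background on the aging array and at -3.54 on the suppressed aging array, and gave bounds in the same directions. Mmp24, known from the nervous system, was at -0.63, -1.14 and -1.35 and so was lower on both aging arrays. Mmp15 was at -2.98 on the young array, below background on the aging array and at -3.56 on the suppressed aging array. Mmp14, which activates pro-MMP2, was below background on all 3 arrays, as were Mmp16 and Mmp25.

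The secreted MMPs that cut interstitial collagen and basement membrane gave little signal. Of the 4 collagenases, Mmp8 of neutrophils was above background on all 3 arrays, at -2.78, -3.53 and -3.06. Mmp1b was at -4.09 on the young array, near its limit, and below background on the others, and Mmp1a and Mmp13 were below background throughout. Of the gelatinases, which cut basement membrane collagen, Mmp2 was below background throughout. By 1 of its 2 probes, Mmp9 was at -1.79 on the young array and below background on both aging arrays, so that its difference from young was -2.26 or lower in aging and -2.15 or lower in suppressed aging blastocysts. Its other probe, to the same transcript, was below background on all 3 arrays. Of the stromelysins and matrilysin, Mmp3, Mmp7 and Mmp10 were below background throughout. Mmp11 was at -2.68 on the aging array alone, at least 1.52 above young.

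Among the other MMPs, 3 of 7 were above background on all 3 arrays. Mmp28 (epilysin), an enzyme of epithelia, was at 2.17, 2.26 and 2.31 by its brighter probe and at -1.92, -1.81 and -1.90 by the other. Its levels differed by at most 0.15 between any 2 arrays by either probe. Mmp12, the elastase of macrophages, was at 0.11, -0.08 and 0.08 by 1 probe. Its other 2 probes had signal on the young array alone, at -3.15 and -3.57, and gave differences of -1.06 or lower and -0.38 or lower between aging and young and of -0.79 or lower and -0.36 or lower between suppressed aging and young blastocysts. The probes of Mmp12 thus did not give the same picture after suppression. Mmp19 was at -1.37, -1.58 and -1.34, slightly lowest on the aging array, and its other probe was below background throughout. Mmp21, which is needed for left-right asymmetry of the embryo, was at -3.11 on the young and -3.68 on the suppressed aging array and below background on the aging array. Mmp23 was at -2.49 on the suppressed aging array alone, at least 1.83 above aging and at least 1.61 above young. Mmp20 of tooth enamel and Mmp27 were below background throughout.

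**Figure D3:**
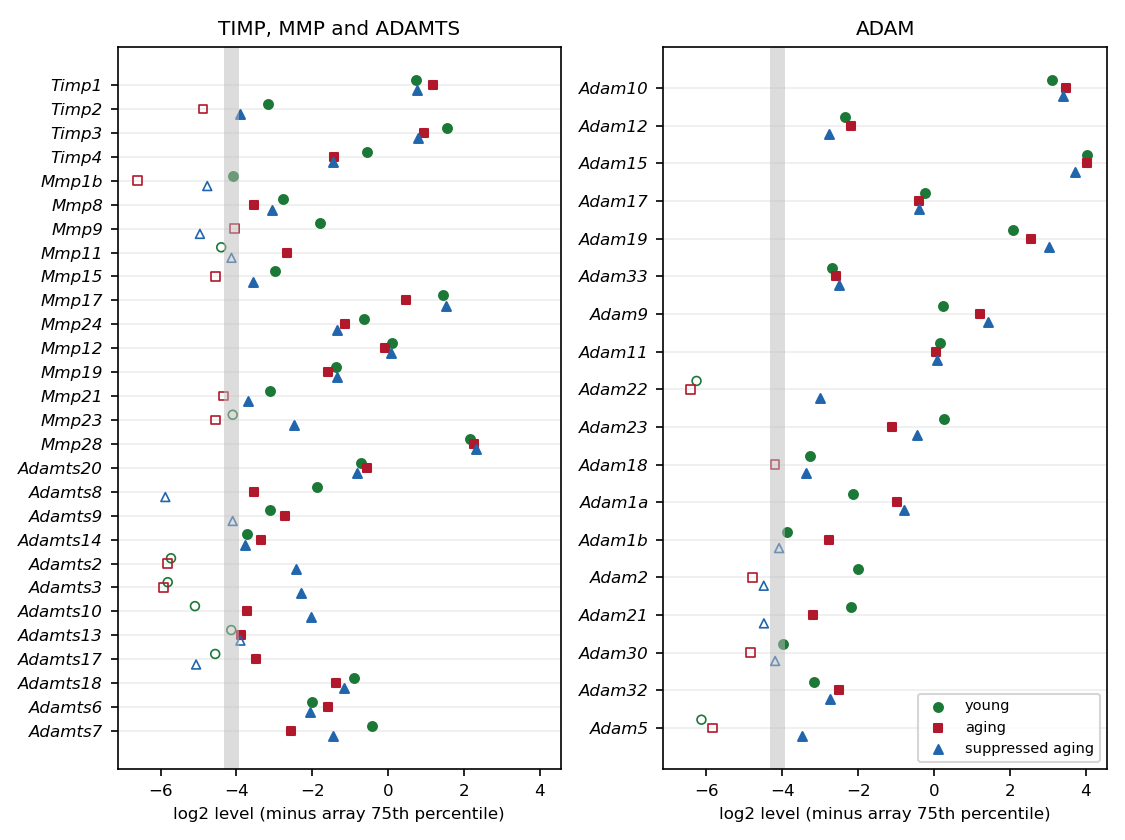
Log2 level (x axis) of the 46 members with signal on at least 1 array, by the probe of highest mean level, on the young (circles), aging (squares) and suppressed aging (triangles) arrays. Open symbols are below background, the grey band spans the detection limits of -4.32 to -3.93, and genes such as Mmp9 at -1.79 on the young array stand apart from their own open symbols.

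The ADAMs known as proteases of many tissues were above background on all 3 arrays in 7 of 9 cases, and of these Adam9 and Adam19 differed most between arrays. Adam10, the main enzyme that sheds Notch receptors and cadherins, was at 3.11, 3.49 and 3.40. Its second probe was at -1.86, -2.09 and -1.47, and the probes went opposite ways between aging and young blastocysts. Adam17, which releases tumour necrosis factor and ligands of the epidermal growth factor receptor, was at -0.23, -0.41 and -0.39 by one probe and at -0.56, -1.21 and -0.34 by the other. The second probe was lowest on the aging array, whereas by the first the aging and suppressed aging arrays differed by only 0.02.

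Adam15 had 3 probes, and all of them went the same way. They were at 4.02, 3.84 and 3.59 in young, 4.03, 3.98 and 3.65 in aging, and 3.73, 3.54 and 3.25 in suppressed aging blastocysts. The differences were 0.01 to 0.14 between aging and young and -0.44 to -0.30 between suppressed aging and aging blastocysts. Adam9, an enzyme of cell adhesion and shedding, was at 0.24, 1.22 and 1.42, so that both aging arrays lay above the young array, by 0.98 and 1.19. Adam19 was at 2.08, 2.57 and 3.04, with the suppressed aging array 0.97 above young. Adam12 was at -2.36, -2.18 and -2.76 and Adam33 at -2.68, -2.59 and -2.50, each by 1 probe, with their other probes below background throughout. Adam8 and Adam28, known from leukocytes, were below background on all 3 arrays.

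The ADAMs that lack protease activity and act in adhesion of neurons were Adam11, Adam22 and Adam23. Adam11 was at 0.16, 0.04 and 0.09 by its brighter probe and at -2.10, -1.95 and -2.26 by the other. Adam23 had 3 probes above background on all arrays, and they disagreed. They were at 0.26, -1.95 and -2.73 in young, at -1.11, -0.04 and -2.62 in aging, and at -0.46, -1.21 and -2.92 in suppressed aging blastocysts. Aging minus young thus ran from -1.37 to 1.91 within this 1 gene, and no direction can be given for it. Adam22 was at -3.01 on the suppressed aging array alone.

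Of the ADAMs of testis and epididymis, Adam1a and Adam32 were above background on all 3 arrays. Adam1a, a fertilin subunit that sperm need, was at -2.13, -0.98 and -0.78, higher on both aging arrays than on the young array, by 1.15 and 1.35. Adam1b lies beside it in the genome and was at -3.87 on the young and -2.77 on the aging array. It was below background on the suppressed aging array. Adam2, the other fertilin subunit, was at -2.01 on the young array and below background on both aging arrays, with a difference of -2.31 or lower between aging and young blastocysts. Adam21 was at -2.19 in young and -3.19 in aging blastocysts and below background after suppression. Of the markers of sperm and testis, Prm1, Prm2, Tnp1 and Tnp2 were above background on each array and Odf1 and Akap4 on none. Aging minus young was -0.48, 0.13, -0.43 and -0.28 for Prm1, Prm2, Tnp1 and Tnp2. Suppressed aging minus young was 0.11, 0.30, -0.64 and -0.21. The summed log2 level over the 6 genes was 0.82, 0.54 and 0.66, and Tnp2 (0.23, -0.05 and 0.02) gave the largest part of it. The part of these markers in the values of these ADAMs was not tested.

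Adam32 was the 1 member with a probe whose difference was shown to pass 5-fold. By its probe of highest mean level it was at -3.15, -2.51 and -2.74, with no more than 0.65 between arrays. Another probe to the same transcript was below background on the young and aging arrays and at -1.46 on the suppressed aging array, at least 2.86 above aging and at least 2.74 above young. The third probe was below background on all arrays. Counting each probe on its own, this was 1 of 54 member probes in the comparison of suppressed aging with aging blastocysts and 1 of 56 in that with young blastocysts, beside 1.38 percent and 1.32 percent of all named probes that were more than 5-fold higher. No other member probe could be shown to be more than 5-fold apart in any comparison, of which the one between aging and young blastocysts had 54 member probes, and probes with a bound may differ by more than their bound.

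**Figure D4:**
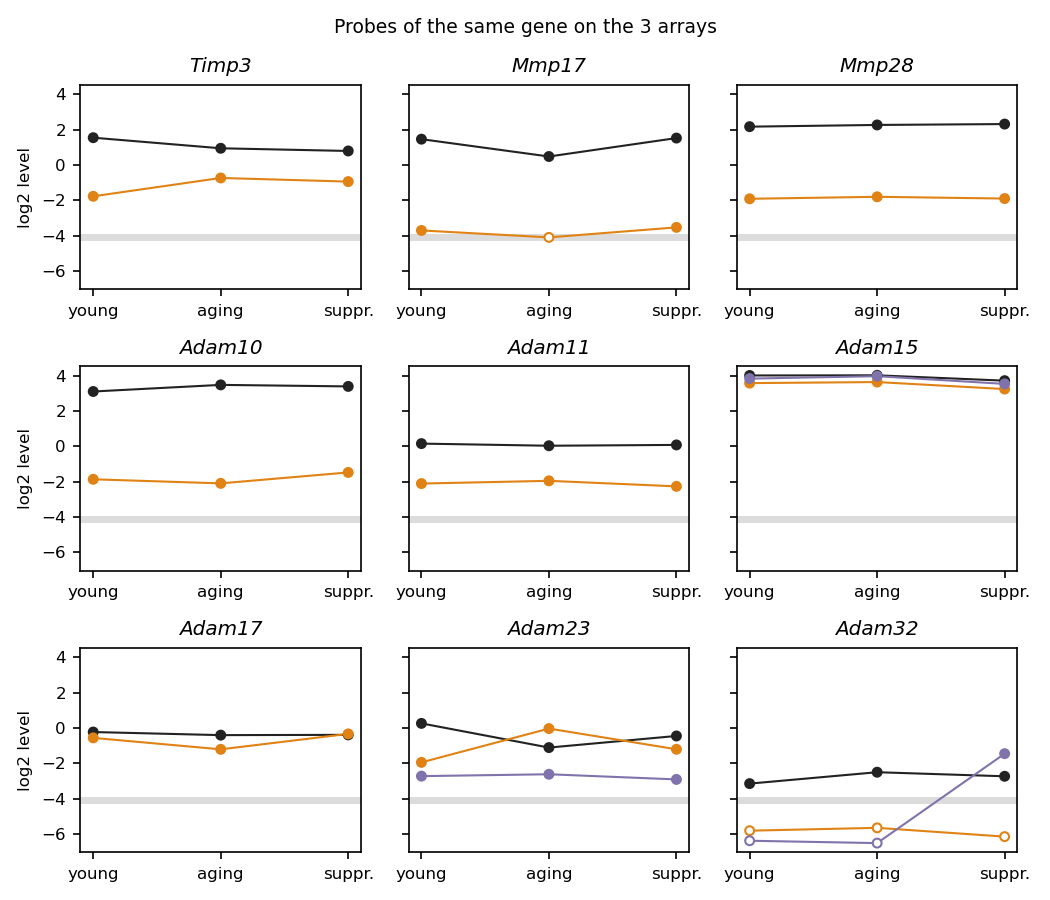
Log2 level (y axis) of each probe (one line per probe) of the 8 members with several probes above background on a pair of arrays, and of Adam32, on the young, aging and suppressed aging (suppr.) arrays. Open symbols are below background, the grey band spans the detection limits, and the lines of Adam15 run in parallel whereas those of Adam23 and Timp3 cross or converge.

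Probes of the same gene give the one measure of spread that these arrays hold beyond the repeated spots. Those of Adam11 and those of Mmp28 carry different transcripts of the gene, so this spread need not be error alone. Repeated spots of 1 probe had a median SD of 0.0533, 0.0500 and 0.0453 (log2) on the 3 arrays, which is the error of the spot and not of the embryos. Of the 38 members with more than 1 probe, 22 had probes that differed in detection on at least 1 array. Among them, Mmp1b, Mmp9, Adam5, Adam22, Adamts2, Adamts13 and Adamts17 had signal on a single array by 1 probe, while their other probes were below background throughout. Timp2, Timp4, Adam1b, Adam12, Adam18 and Adamts20 each also had a second probe below background throughout. All other probes of Adam33, Adamts6 and Adamts18 were below background throughout as well. Between aging and young blastocysts, 7 members had several probes measured on both arrays, these went the same way in 3 of 7, and their differences spanned a median of 0.47. Between suppressed aging and aging blastocysts it was 3 of 7, with a median span of 0.36. Between suppressed aging and young blastocysts it was 5 of 8, with a median span of 0.12. These are medians. The widest spans in the 3 comparisons, in the same order, were 3.28 (Adam23), 1.83 (Adam23) and 1.58 (Timp3). A single difference above the median span can thus still lie within the spread that probes of 1 gene showed.

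Among ADAMTS genes, those above background on all 3 arrays were Adamts20, Adamts18, Adamts7, Adamts6 and Adamts14. Adamts7, which cuts cartilage oligomeric matrix protein, differed most. It was at -0.43 in young, -2.57 in aging and -1.44 in suppressed aging blastocysts, so that aging minus young was -2.14 and suppressed aging lay between the others, 1.13 above aging and with a difference of -1.01 from young. Of the 29 members measured in both aging and young blastocysts, it was the 1 that lay outside the middle 95% of named genes of similar level, which ran from -1.87 to 2.09. In the other comparisons no member measured on both arrays lay outside the middle 95%. Such a range leaves some genes outside by construction, so 1 of 29 does not set Adamts7 apart. It was read by 1 probe, and under normexp its aging minus young difference was -1.05. Adamts20, which cuts versican, was at -0.72, -0.56 and -0.82, Adamts18 was at -0.89, -1.38 and -1.17, and Adamts6 was at -2.00, -1.57 and -2.06. Each of these values is of 1 probe, and the other probes of Adamts20, Adamts18 and Adamts6 were below background throughout.

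The ADAMTS enzymes that cut the N-terminal propeptide of fibrillar procollagens have 3 genes. Of these, 1, 1 and 3 showed signal on the young, aging and suppressed aging arrays, beside 65.1, 65.5 and 63.8 percent of all named genes. Adamts14 was at -3.73, -3.34 and -3.77 and so was near the limit on every array. Its other probe had signal on the young array alone, at -3.88. The 2 probes went opposite ways between aging and young blastocysts, with 0.38 by the first and -0.39 or lower by the other. Adamts2 was at -2.42 and Adamts3 at -2.29 on the suppressed aging array alone. Adamts2 was at least 1.90 and Adamts3 at least 2.03 above the aging array, and they were at least 1.78 and 1.91 above the young array. Adamts10, which binds fibrillin, was below background in young blastocysts and at -3.71 in aging and -2.04 in suppressed aging blastocysts, 1.67 higher after suppression.

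The hyalectanases cut proteoglycans such as versican and aggrecan. Of their 7 genes, 3, 3 and 1 had signal on the young, aging and suppressed aging arrays. Of all named genes it was 65.1, 65.5 and 63.8 percent. The lower count on the suppressed aging array rests on Adamts8 and Adamts9, which are dim and have 1 probe each. Adamts8 was at -1.87 in young and -3.54 in aging blastocysts and below background after suppression, so that its difference from young was -1.67 in aging and -2.06 or lower in suppressed aging blastocysts. Adamts9 was at -3.11 and -2.71 on the same arrays and below background after suppression. Its level there was -4.10, under that array's limit of -3.93 but above the limits of the young and aging arrays (-4.20 and -4.32). Probes above a limit can still fail the call, as that of Mmp23 did at -4.10 on the young array. Whether Adamts9 would have passed at this level on another array is thus not known. Adamts1, Adamts4, Adamts5 and Adamts15 were below background throughout. Of the other ADAMTS genes, Adamts13, which cuts von Willebrand factor, passed the call on the aging array alone, at -3.88. On the suppressed aging array it failed the call at -3.89, so these levels hardly differed. Adamts17 was at -3.48 on the aging array alone. Adamts12, Adamts16 and Adamts19 were below background throughout.

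The members were also set beside named genes of the same brightness. Of named genes with a mean level below -2, 22.4% were more than 2-fold apart between aging and young blastocysts, and from -2 to 0 it was 23.7%. From 0 to 2 it was 13.4% and above 2 it was 5.87%. Members measured on both arrays numbered 9, 10, 6 and 4 in these ranges, and 3, 3, 0 and 0 of them were more than 2-fold apart. Of the 29 members so measured, 19 thus lay in the ranges below 0, where named genes at large also differed more often.

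Lists of other genes that act with these enzymes were also read. The counts below stand beside the 59.2% of all named genes that were above background on all 3 arrays. Of 6 inhibitors, inducers and convertases, 4 were on all 3 arrays. Furin, a convertase that removes the propeptide of membrane-type MMPs and ADAMs, was at 3.30, 3.91 and 3.90. Bsg (basigin), a surface protein known to induce MMPs in neighbouring cells, was at 3.88, 3.85 and 3.93, and Pcsk6 at 1.81, 1.98 and 1.57. Pcsk7 was at 0.28, 0.88 and -0.28. The membrane inhibitor Reck and the convertase Pcsk5 were below background throughout.

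Of the 8 partners of ADAM10 and ADAM17, 7 were above background on all 3 arrays. The rhomboid-like protein Rhbdf2, which brings ADAM17 to the surface, was at 0.44, 0.65 and -0.04. Tspan33, a tetraspanin that binds ADAM10, was at 1.17, -0.88 and -1.64, more than 5-fold lower in suppressed aging than in young blastocysts (-2.82). It was 1 of 7 partners compared there, beside 1.05 percent of all named genes that were more than 5-fold lower. Tspan5 of the same group went the other way, at -1.51, -0.83 and 0.08. The plasminogen system can activate pro-MMPs. Plau, the urokinase of this system, was at -0.98 in young, 1.58 in aging and 0.08 in suppressed aging blastocysts. It was more than 5-fold higher in aging than in young (2.56), as 1 of 5 genes of this system compared, beside 1.31 percent of all named genes. Its difference from aging after suppression was -1.51. Its receptor Plaur (-0.67, -0.11 and -0.69) was also highest on the aging array. The other activator Plat went the other way, at -2.24 on the young array, below background on the aging array and at -2.45 on the suppressed aging array, with a difference of -2.04 or lower between aging and young and at least 1.83 higher after suppression. Plg, which encodes plasminogen, had signal only on the young array (-3.43). Of 6 relatives without protease domain, Adamtsl4 (-2.02, -1.77 and -1.49) and Adamtsl5 (0.79, 0.61 and 0.85) were above background on the 3 arrays and the other 4 on none. Adamdec1 was at -3.26, -3.56 and -2.91.

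Members above and below background differed in CpG sites near their start. RefSeq gave a promoter window of 300 bases, 250 before and 50 after the start, for 50 of the 80 members. The 16 members above background on all 3 arrays had a median of 23 CpG sites per window, the 14 on 1 or 2 arrays had 19 and the 20 on no array had 1. Over all 18487 named genes with a window, the medians were 20, 8 and 4. At least 15 CpG sites were found in 62.5%, 64.3% and 10.0% of these members and in 66.8%, 33.5% and 18.5% of all named genes of the same classes, and in 49.0% of all named genes together. The threshold of 15 was chosen after the windows were seen. Genes with high CpG content are known to be used in many tissues, and no test was made of what sets these members apart. Timp4, Mmp12, Adam1a and Mmp8 were above background on all arrays with 2, 3, 4 and 4 CpG sites, and Adamts1 and Mmp25 were below it throughout with 18 each.

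**Figure D5:**
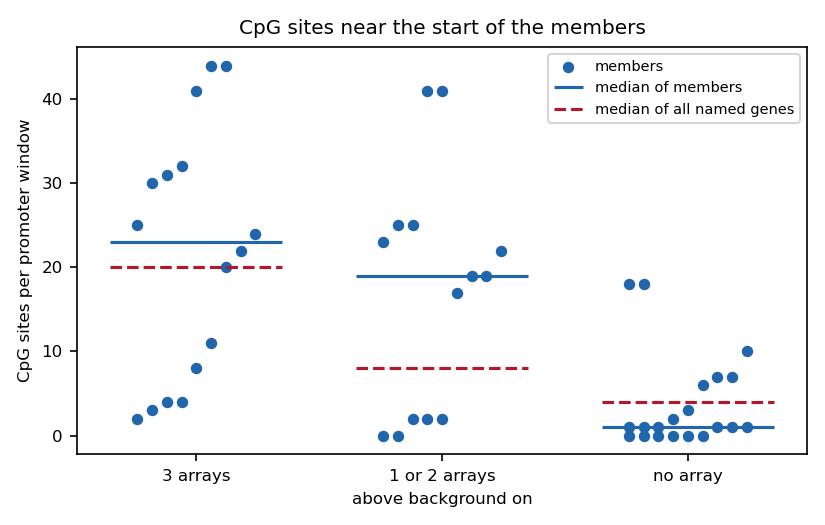
Number of CpG sites in the 300-base promoter window (y axis) of each of the 50 members with a window (points), by the number of arrays on which the gene was above background (x axis), with the medians of members (solid) and of all named genes (dashed). The members on no array lie low, with a median of 1, and those on 3 arrays reach 44.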

How the data were processed

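One Agilent mouse array (1 dye, Cy3) per condition was read with Feature Extraction 12.0.3.1, the version in the submitters' processing notes. The deposited values are linear spot intensities from which the scanner software had taken the background, with no normalization between arrays, and a table of the same intensities times 1 constant per array. The labels name a cRNA labelling kit and the study's methods a global PCR amplification, and the files do not settle this.

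Control spots and outlier spots (100, 85 and 118 on the young, aging and suppressed aging arrays) were removed, and no spot was saturated. Log2 intensities of the spots of a probe were averaged, and the array's 75th percentile (145, 155 and 122 before the log) was subtracted. Probes above background numbered 33060, 33209 and 31892 of 56591. Precision is limited by the 3 arrays. Probes were named through the RefSeq table, since the scanner files used here hold no gene names. That table is of another build than the array design, and its coordinates were used only for its own promoter sequences. A gene was read by its probe of highest mean level. A bound uses the higher of the detection limit and the dim probe's own level. The limit is the lowest level that passed the call, and some probes above it did not pass. A probe of Mmp12 at -3.95 on the aging array is one of them, so a bound is not strict.

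Members and lists were chosen with earlier results of these data known. Levels are given for each TIMP and MMP above background on any array, each ADAM and ADAMTS above background on all 3 and each member over 5-fold apart, and others named for their bounds or their partial detection were chosen after their values were seen. A split of ADAMs by the zinc motif was planned, but protein sequences were not used here and known tissue use took its place. Ranges of level, promoter examples and the count of each probe on its own were also chosen after the data were seen. Near-identical copies (Mmp1a and Mmp1b, Adam1a and Adam1b, Adam6a and Adam6b, Adam26a and Adam26b) may share signal, which was not tested. One gene of the lists is not reported here. Calling was tested on simulated data. Python 3.11.15, NumPy 2.4.6, pandas 2.3.3, Matplotlib 3.10.9, R 4.3.3 and limma 3.58.1 (normexp, offset 50) were used.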

Additional observations from a re-analysis of the deposited data

How the results depend on the processing

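No member could be shown to be over 5-fold apart under normexp, quantile normalization, centring on probes above background on all arrays or on housekeeping genes, the authors' values, outlier spots kept, the mean over probes of a gene, or probes above background on both arrays. Without a filter on dim probes, 2, 5 and 8 members were (aging against young, suppressed aging against aging, suppressed aging against young). With each probe counted separately, an alternative chosen after seeing the data, 1 member probe was in each of the latter 2 comparisons. At 2-fold the counts were 12, 10 and 12. The median of the members between aging and young blastocysts turned from -0.18 to 0.0167 with the mean over probes and to 0.0088 with probes above background on both arrays. Between suppressed aging and aging blastocysts it was 0.18 with the mean over probes and 0.21 without a filter, and between suppressed aging and young blastocysts 0.053 without a filter, where the median of all named genes also moved, to 0.13 and 0.07. The positive-and-significant flag gave 56, 59 and 58 members with signal in place of 37, 33 and 35. The cause of these shifts was not tested. The MMPs stayed mostly lower in aging than in young blastocysts (8 of 10 under normexp, 5 of 6 measured on both arrays, 9 of 11 otherwise) and mostly higher after suppression (7 to 9 of 10, or 5 of 6). Against young blastocysts after suppression, 6 of 10 MMPs were higher under normexp. Single members changed sign in 13 of 120 values under normexp, 11 of 124 with the mean over probes, 5 of 119 with the authors' values, 4 of 123 with quantile normalization and 1 of 124 with housekeeping genes. Naming members through a gene name column of the scanner files was not run, since the files used here have none, and normexp used the median spot signal. No paired analysis was possible because no condition was read on more than 1 array. Dim genes near the limits of -4.20, -4.32 and -3.93 are the least certain.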

Other observations

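Members that lie next to each other among protein-coding genes differed in signal. The run of 10 MMP genes on chromosome 9 (Mmp13, Mmp12, Mmp1b, Mmp3, Mmp1a, Mmp10, Mmp8, Mmp27, Mmp20 and Mmp7, in RefSeq order) had 2 genes above background on all 3 arrays, Mmp12 and Mmp8, and 1 gene on 1 array, whereas the other 7 were below background throughout. On chromosome 8, a run of 5 ADAM genes (Adam18, Adam3, Adam5, Adam32 and Adam9) had 2 on all 3 arrays, 1 on 2 arrays, 1 on 1 array and 1 on none. In 2 other runs on the same chromosome, with 4 genes each (Adam24, Adam25, Adam20 and Adam39, and Adam26b, Adam26a, Adam34l and Adam34), no gene was above background on any array. Adam6b and Adam6a on chromosome 12 and Adamts1 and Adamts5 on chromosome 16 were also below background as neighbours, and of Adamts15 and Adamts8 on chromosome 9 only Adamts8 had signal. These runs were looked up after the values were seen.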
